A study of Mus musculus with 6 samples.

Results

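The 9 genes described here carry the type I interferon signal from the cell surface to the nucleus and part of the way back: the receptor chains Ifnar1 and Ifnar2, the kinases Jak1 and Tyk2, the transcription factors Stat2, Irf9, Irf7 and Irf1, and the inhibitor Socs1. They were chosen by name from the pathway, after an interferon response had already been seen in these same libraries, so their siPkm2 against siNC difference is given as a description, with no p-value, and the counts of the 9 that pass a call rule are shown beside the share of all genes that do and support nothing. All 9 were found among the 55416 genes of the deposited table, and all 9 were among the 15269 genes with enough counts to be compared. RNA had been sequenced from primary mouse chondrocytes, the cells that make cartilage, in 3 libraries transfected with a control siRNA (siNC, labelled wild type) and 3 transfected with an siRNA against Pkm2 (siPkm2). Pkm2 is a splice isoform of the pyruvate kinase gene Pkm, and its silencing is the subject of the study. Both groups were grown in the same serum-containing medium, and cells in both had received an siRNA. No untransfected cells are analysed here. The labels name neonatal knee joints as the source, whereas the supplementary methods describe adult mice. The genotype label names PKM2 for siPkm2 replicate 1 but PKM3 and PKM4 for replicates 2 and 3, and the grouping follows the titles, which name siPKM2 for all 3. On GRCm38 in GENCODE M21, Ifnar2 (16:91372783-91405589) and Ifnar1 (16:91485238-91507441) lie close together on chromosome 16, which also holds Socs1 (16:10782240-10785536), and the other 6 genes lie on 6 other chromosomes: Jak1 on 4, Irf7 on 7, Tyk2 on 9, Stat2 on 10, Irf1 on 11 and Irf9 on 14. The labels do not say whether the libraries of a group are separate cultures or animals, and the paper says only in general terms that experiments were independent, so each test measures the spread between these libraries, which may be technical.

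In this pathway, interferon alpha or beta joins Ifnar1 and Ifnar2 into one receptor, the kinases Tyk2 and Jak1 bound to the chains phosphorylate STAT proteins, Stat2 among them, and Stat2 joins with Irf9 in the factor ISGF3. ISGF3 binds a DNA element called the interferon-stimulated response element (ISRE) and switches on many antiviral genes. Among its targets are genes of its own pathway, such as Irf7, a factor that amplifies interferon production, while Socs1 blocks the kinases and closes the loop. Irf1 is better known as a target of interferon gamma, whose signal ends at a different element, the gamma-activated sequence (GAS).

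The 250 bases before the transcription start are shown for the 3 genes below because they hold a match to one of these elements and stand for 3 different behaviours in the libraries: a large difference (Stat2), a smaller one in the same direction in all 3 pairs (Irf1), and one that was at most 1.48 times within a pair and not in the same direction in all 3 (Socs1). The sequences are from RefSeq on GRCm38.p6, written on the gene's own strand, and capitals mark the match. The letters searched were, for ISRE, GAAA followed by 2 bases of any kind and a further GAAA, on both strands, and TTCNNNGAA for GAS, which reads the same on both strands.
Stat2, chr10:128270248-128270497, plus strand, ISRE match in capitals on the opposite strand: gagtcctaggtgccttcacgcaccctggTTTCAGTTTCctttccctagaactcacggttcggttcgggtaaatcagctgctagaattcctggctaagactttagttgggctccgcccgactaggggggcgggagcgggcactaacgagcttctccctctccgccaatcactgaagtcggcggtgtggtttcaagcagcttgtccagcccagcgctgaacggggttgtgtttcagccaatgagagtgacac
Irf1, chr11:53769764-53770013, plus strand, GAS match in capitals: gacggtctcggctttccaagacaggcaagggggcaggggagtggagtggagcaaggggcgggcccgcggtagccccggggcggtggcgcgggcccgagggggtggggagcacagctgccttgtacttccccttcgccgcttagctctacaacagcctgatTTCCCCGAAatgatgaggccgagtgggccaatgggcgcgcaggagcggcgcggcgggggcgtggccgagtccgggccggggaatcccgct
Socs1, chr16:10785537-10785786, minus strand, 2 overlapping ISRE matches in capitals: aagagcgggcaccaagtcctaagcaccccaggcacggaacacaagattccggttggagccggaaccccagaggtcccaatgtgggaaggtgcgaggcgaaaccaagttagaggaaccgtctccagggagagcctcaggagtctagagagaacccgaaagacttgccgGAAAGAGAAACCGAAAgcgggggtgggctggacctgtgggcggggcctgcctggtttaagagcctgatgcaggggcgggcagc
The Stat2 match starts 222 bases before the start, the Irf1 match 90 bases before it, and the Socs1 matches 83 and 77 bases before it. In windows of 300 bases (250 before to 50 after the start), which were found for all 9 genes, an ISRE match was present in Stat2 and Socs1, and a GAS match in Irf1, Ifnar1 and Ifnar2, at 5 bases before the start in Ifnar1 and 214 in Ifnar2. Neither set of letters was in the windows of Irf7, Irf9, Jak1 or Tyk2. For Irf9 both RefSeq windows (14:55603735-55604034 and 14:55604329-55604628) lie inside the gene as placed in GENCODE M21, which starts at 55603571. The bases before that start were not searched. Of all 27025 genes with such a window, 3.99% held the ISRE letters and 9.55% the GAS letters in at least 1 window. A match is a description of the sequence and not a measured binding site.

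Total counts lay between 22317065 and 25691096 per library, so depth was similar in both groups. Pkm, the targeted gene, was counted as a whole, without separating its isoforms. It had levels in siNC of 2335 (replicate 1), 2746 (replicate 2) and 1674 (replicate 3) CPM, counts per 1000000 counts of the library after scaling by TMM factors. In siPkm2 its levels were 336.2, 540.6 and 309.3 CPM, so every siPkm2 library lay below every siNC library. Replicate 2 of both groups stood apart from replicates 1 and 3. The summed level of 8 chondrocyte markers, such as the cartilage collagen Col2a1 and the proteoglycan Acan, was 10030 CPM in siNC replicate 2 and 13990 CPM in siPkm2 replicate 2, against 38940 to 46450 CPM in the other 4 libraries, and none of the 8 was at 0 in any library. The sum of 8 leukocyte and macrophage markers was 75.93 and 62.02 CPM in replicate 2 of siNC and siPkm2, against 8.582 to 19.81 CPM elsewhere. In replicate 2 it was made up mainly of Cd68 and Cd14, of which Cd14 was called higher in siPkm2 with the replicate number fitted as a block (edgeR adjusted p = 0.0432). Cd68 was not called: it fell from 55.54 to 33.38 CPM in pair 2 and rose 2.70 and 2.27 times in pairs 1 and 3. Of the other 2 tested markers, Lyz2 was lower in siPkm2 in all 3 pairs (0.770, 0.927 and 0.993 times). Csf1r followed the direction of Cd68, at 1.75, 0.853 and 1.32 times siNC in pairs 1, 2 and 3. It was highest in replicate 2 in siNC (2.144 CPM, against 0.5605 and 1.489 CPM). In siPkm2 it was not, at 1.829 CPM in replicate 2 against 1.965 CPM in replicate 3. The pan-leukocyte marker Ptprc had 0 to 2 counts, and Tyrobp, Fcer1g and Adgre1 0 to 5 counts, in every library. The 6 endothelial markers summed to 1.314 to 2.67 CPM in siNC and to 3.016 to 3.424 CPM in siPkm2. These ranges do not overlap, as was so with siPkm2 higher for 12.0% of all tested genes. The sums are near the floor: only 2 of the 6 had enough counts to be tested, and the highest count of any was 44.01 (Vwf). The means of Vwf, Tek, Kdr and Cdh5 were higher in siPkm2, and those of Pecam1 and Emcn lower. The 6 synovial fibroblast markers summed to 261.2, 554 and 441 CPM in siNC and to 375.7, 678.8 and 612.7 CPM in siPkm2, higher in all 3 pairs. Of these 6, Prg4 and Pdpn were called higher with the replicate number fitted as a block (edgeR adjusted p = 0.0271 and 0.0272), against 2.65% of all tested genes. Prg4 was also called higher by DESeq2 without the block (DESeq2 adjusted p = 6.62e-05). The list did not move as 1: with the block only 3 of the 6 had a log2 fold change above 0. Thy1, Pdgfra and Dpt were at -0.92, -0.38 and -0.65, and Thy1 was lower in all 3 pairs. In pair 1 Prg4 alone went from 15.86 to 128.7 CPM. The paper lists PRG4, with COL2A1 and ACAN, among the matrix genes higher in a subgroup of human chondrocytes, so Prg4 is not particular to synovial cells. In bulk RNA, fewer cells of a type and less RNA per cell cannot be told apart, and the part of cell composition in the results below was not tested.

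**Figure D1:**
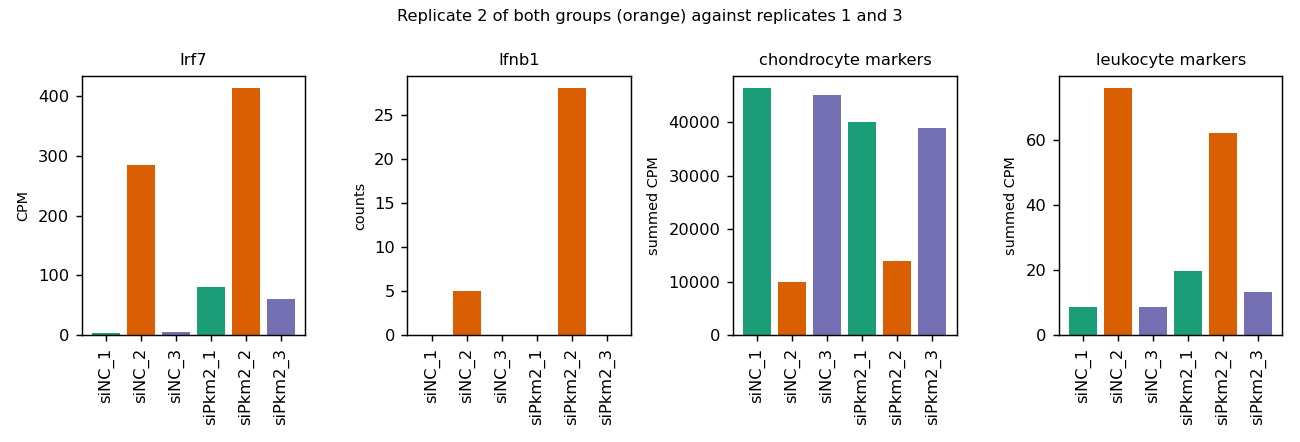
Irf7 (CPM), Ifnb1 (counts) and the summed CPM of 8 chondrocyte and 8 leukocyte and macrophage markers in each of the 6 libraries, with 1 bar per library and replicate 2 of both groups in orange. Replicate 2 was highest in Irf7 and in the leukocyte sum, lowest in the chondrocyte sum, and alone in having Ifnb1 counts (5 in siNC and 28 in siPkm2).

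The 9 genes fell into 3 patterns. The genes of ISGF3 and Irf7 had the largest differences: Stat2, Irf9 and Irf7 were low in siNC replicates 1 and 3, high in every siPkm2 library, and already high in siNC replicate 2. Ifnar2 and, in part, Irf1 were high in replicate 2 of both groups and differed less between siNC and siPkm2. Ifnar1, Jak1 and Socs1 varied least of the 9 across the 6 libraries, and Tyk2 was low only in siNC replicates 1 and 3. The siNC and siPkm2 ranges overlapped for every one of the 9 genes (0 of 9 did not overlap, where 12.0% of all tested genes did not overlap with siPkm2 higher and 12.3% with siPkm2 lower).

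**Figure D2:**
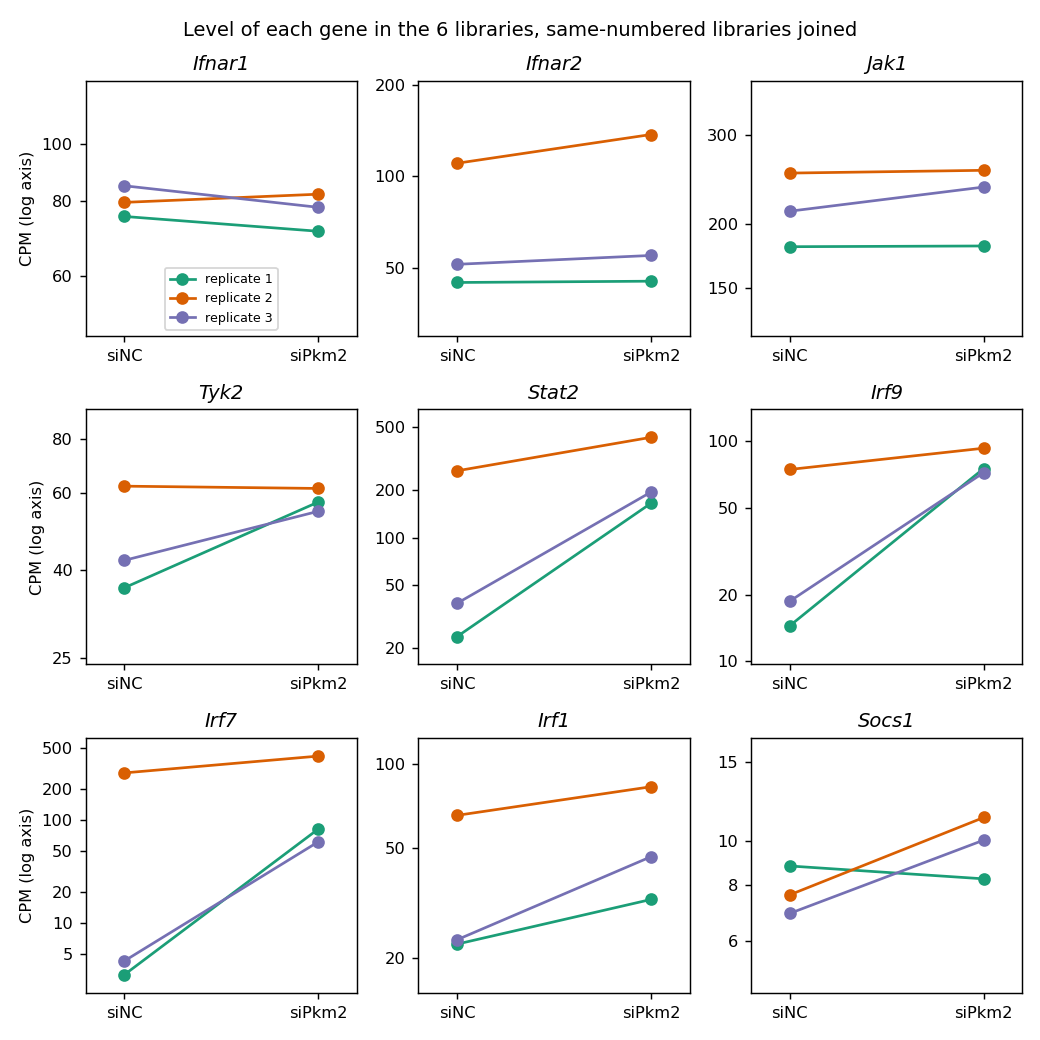
CPM (log axis) of each of the 9 genes in siNC and siPkm2, with 1 point per library and lines joining libraries of the same replicate number. Stat2, Irf9 and Irf7 climbed steeply in replicates 1 and 3 and little in replicate 2, Ifnar2 was high in replicate 2 on both sides, and Ifnar1 stayed between 71.23 and 84.94 CPM.

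Irf7 is the interferon regulatory factor that is itself switched on by interferon. In siNC its levels were 3.123 CPM (78 counts, replicate 1), 284.2 CPM (7026 counts, replicate 2) and 4.247 CPM (97 counts, replicate 3). In siPkm2 they were 80.88 CPM (1735 counts), 413.6 CPM (10632 counts) and 60.83 CPM (1331 counts) in the same order of replicates, which is kept for every gene below. Replicate 2 was the highest library of each group, and the siNC library of that number exceeded both other siPkm2 libraries. Within the pairs of equal number, siPkm2 was 25.9 times siNC in pair 1, 1.46 times in pair 2 and 14.3 times in pair 3. The siNC libraries differed among themselves by more than that, since replicate 2 was at 91.0 times replicate 1 and 66.9 times replicate 3. The fitted log2 fold change was 0.93 ± 1.69 (SE, n = 3 per group) when libraries were compared as groups and 2.95 ± 0.88 when the replicate number was fitted as a block, which compares libraries within their pair.

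Stat2 is the subunit of ISGF3 that activates transcription. Its levels were 23.66, 264.9 and 38.44 CPM in siNC and 165.0, 431.5 and 194.2 CPM in siPkm2. The order of the libraries was that of Irf7 except at the lower end of siPkm2, with siNC replicates 1 and 3 lowest, and siPkm2 was 6.97, 1.63 and 5.05 times siNC in pairs 1, 2 and 3. The log2 fold change was 1.27 ± 0.94 without the block and 1.95 ± 0.42 with it.

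Irf9 is the DNA-binding subunit of ISGF3. It was at 14.49, 74.51 and 18.74 CPM in siNC and at 75.24, 93.1 and 72.07 CPM in siPkm2. Here the 3 siPkm2 libraries were close to each other, within 1.29 times, and siNC replicate 2 lay among them, between siPkm2 replicates 3 and 1. The ratios within pairs were 5.19, 1.25 and 3.85, and the log2 fold change was 1.16 ± 0.62 without the block and 1.54 ± 0.41 with it.

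Irf1 is an interferon regulatory factor that also responds to interferon gamma and to inflammatory signals. It was at 22.42, 65.37 and 23.25 CPM in siNC and at 32.49, 82.91 and 46.34 CPM in siPkm2. All 3 pairs were higher in siPkm2, by 1.45, 1.27 and 1.99 times, and these steps were smaller than the gap between siNC replicate 2 and siNC replicates 1 and 3, which was 2.92 and 2.81 times. The log2 fold change was 0.54 ± 0.53 without the block and 0.62 ± 0.14 with it.

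Of the receptor chains, Ifnar2 binds interferon tightly and anchors Jak1. It was at 44.64, 110.2 and 51.23 CPM in siNC and at 45.08, 137.0 and 54.79 CPM in siPkm2. Replicate 2 was thus 2.47 and 2.15 times replicates 1 and 3 in siNC and 3.04 and 2.50 times in siPkm2, while the ratios of siPkm2 over siNC within pairs were 1.01, 1.24 and 1.07. Its log2 fold change was 0.20 ± 0.53 without the block and 0.14 ± 0.09 with it. Ifnar1, the chain that holds Tyk2, had levels of 75.43, 79.65 and 84.94 CPM in siNC and 71.23, 82.21 and 78.15 CPM in siPkm2. No library stood apart, replicate 2 included, and the log2 fold change was -0.05 ± 0.12 without the block and -0.05 ± 0.08 with it.

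Both receptor kinases were measured at moderate to high levels in every library. Jak1 was at 180.6, 252.3 and 212.2 CPM in siNC and at 181.2, 255.5 and 236.8 CPM in siPkm2, so that equal numbers lay close together, with ratios of 1.00, 1.01 and 1.12. Tyk2 was at 36.32, 62.18 and 41.99 CPM in siNC and at 57.15, 61.43 and 54.43 CPM in siPkm2, with ratios of 1.57, 0.988 and 1.30. Tyk2 thus showed, on a smaller scale, the arrangement of Irf9: siNC replicates 1 and 3 below the other 4 libraries. Its log2 fold change was 0.30 ± 0.22 without the block and 0.34 ± 0.14 with it, and that of Jak1 was 0.06 ± 0.20 and 0.06 ± 0.08.

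Socs1, the inhibitor that binds the kinases and is itself induced by interferon, was the lowest of the 9 genes in CPM in every library outside siNC replicates 1 and 3, where Irf7 was lower. It was at 8.809, 7.605 and 6.918 CPM in siNC and at 8.251, 11.28 and 10.05 CPM in siPkm2, from 158 to 290 counts. The groups overlapped through replicate 1, and the log2 fold change was 0.34 ± 0.21 without the block and 0.34 ± 0.19 with it. Replicate 2, which had the highest Irf7, Stat2 and Irf9, did not stand apart for Socs1 in siNC, where it was 0.863 times replicate 1 and 1.10 times replicate 3. Of the 2 genes whose window held the ISRE letters, Stat2 thus ranged over 23.66 to 431.5 CPM and Socs1 over 6.918 to 11.28 CPM.

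**Figure D3:**
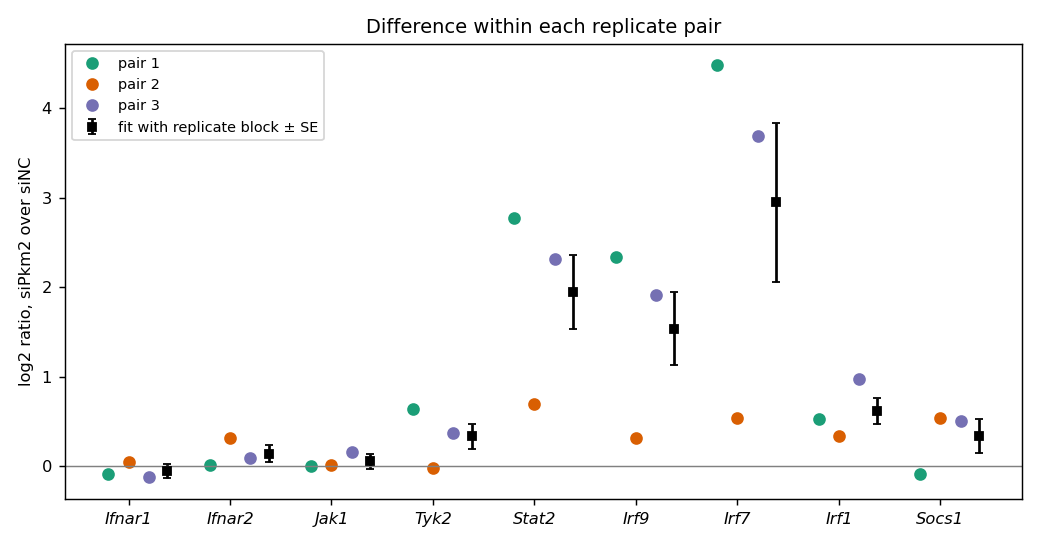
The log2 ratio of siPkm2 over siNC within each pair of equal replicate number (coloured points) and the log2 fold change fitted with the replicate number as a block ± SE (black squares) for each of the 9 genes. For Irf7, Stat2 and Irf9 the pair 2 ratios (0.54, 0.70 and 0.32) lay far below those of pairs 1 and 3, and for Ifnar1 and Jak1 all 3 ratios lay near 0.

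Counted over the pairs, 6 of the 9 genes were higher in siPkm2 in all 3 (Ifnar2, Jak1, Stat2, Irf9, Irf7 and Irf1) and 0 were lower in all 3, where 30.5% of all tested genes were higher in all 3 pairs and 30.6% lower. Leaving out replicate 2 of both groups, siPkm2 lay wholly above siNC for 5 of 9 genes (Tyk2, Stat2, Irf9, Irf7 and Irf1), against 29.1% of all tested genes, and the ranges of Ifnar1, Ifnar2, Jak1 and Socs1 still overlapped. Replicate 2 was over 2 times replicates 1 and 3 in both groups for 3 of 9 genes (Ifnar2, Stat2 and Irf7), against 4.31% of tested genes. By edgeR's quasi-likelihood test over all genes, with a fold over 2 and an adjusted p under 0.05, 0 of 15269 genes were called (0%), the 9 genes among them, although 2690 of the 15269 and 0 of the 9 had an unadjusted p under 0.05. DESeq2's Wald test called 1.08% of its 15419 genes higher and 0 of the 9, and gave no adjusted p for Stat2 and Irf7. With the replicate number as a block, edgeR called 2.65% of tested genes higher and 3.18% lower, and among the 9 it called Stat2 and Irf9 higher. Nothing is read from these counts, since the 9 genes were proposed with this contrast in view. The median log2 fold change was 0.34 over the 9 genes and -0.02 over all 15269, and 8 of the 9 and 7341 of the 15269 were above 0.

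Per length of transcript, in the deposited TPM, the order of the 9 genes differed between libraries. In siNC replicates 1 and 3 the receptor and its kinase led, with Jak1 at 55.86 and 72.76 TPM and Ifnar2 at 47.72 and 66.8 TPM, and Irf7 came last of the 9 at 2.86 and 4.2 TPM. In siNC replicate 2 Irf7 came first at 282.62 TPM, ahead of Ifnar2 at 153.02, Stat2 at 147.2 and Jak1 at 90.08 TPM. In siPkm2, Stat2 led in replicates 1 and 3, at 81.4 and 95.06 TPM, and Irf7 led in replicate 2, at 386.42 TPM. Over the group, the siPkm2 means ran from Irf7 (171.2 ± 186.5 TPM, SD, n = 3) through Stat2 (130.6 ± 73.7), Ifnar2 (92.94 ± 67.42), Jak1 (74.79 ± 16.5), Irf9 (56.74 ± 9.907), Irf1 (51.22 ± 28.73), Ifnar1 (29.22 ± 3.397) and Tyk2 (20.12 ± 1.935) to Socs1 (9.83 ± 1.753). The steps from Jak1 to Irf9, from Ifnar1 to Tyk2 and from Tyk2 to Socs1 were larger than the SDs of the genes they join. Every other pair of neighbours in that order differed by less than the larger of their SDs. In siNC the means ran from Irf7 (96.56 ± 161.1 TPM), Ifnar2 (89.18 ± 56.1), Jak1 (72.9 ± 17.11) and Stat2 (59.6 ± 76.01) through Irf1 (34.17 ± 22.35), Ifnar1 (31.01 ± 3.587) and Irf9 (27.01 ± 25.77) to Tyk2 (17.83 ± 5.912) and Socs1 (7.75 ± 0.3064), and of these steps only that from Tyk2 to Socs1 was larger than the SDs.

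**Figure D4:**
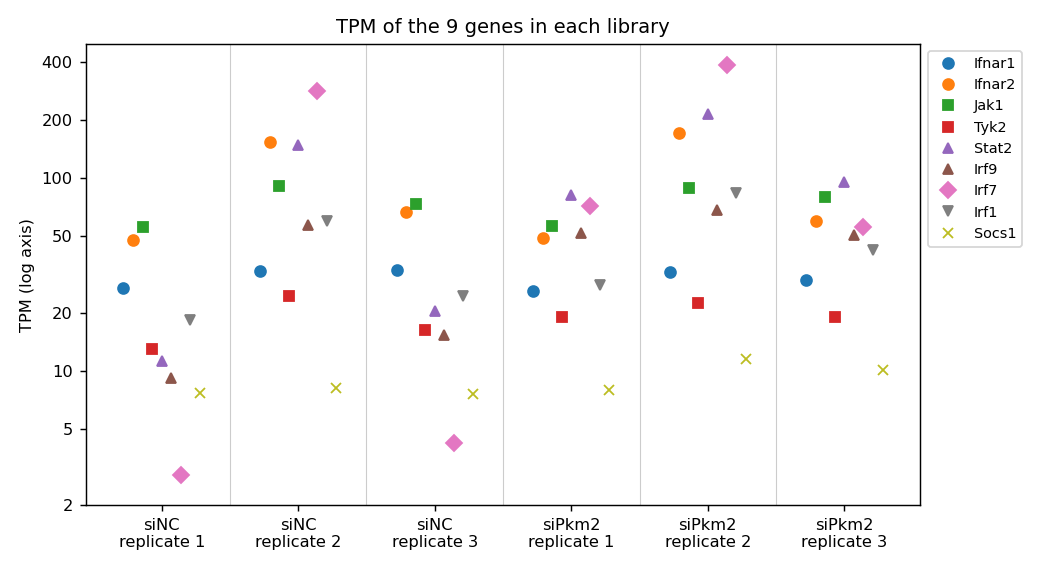
TPM (log axis) of the 9 genes in each of the 6 libraries, with 1 symbol per gene. Irf7 was the lowest of the 9 in siNC replicates 1 and 3 and the highest in replicate 2 of both groups, whereas Ifnar1 stayed between 25.77 and 33.38 TPM and Socs1 between 7.53 and 11.42 TPM.

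Across the 6 libraries, the log2 CPM of Stat2 followed that of Irf7 (Pearson r = 0.984), Irf9 (0.979) and Tyk2 (0.978), and that of Irf7 followed Irf1 with r = 0.941, whereas Ifnar1 and Irf7 had r = -0.0107. These values are over n = 6 libraries that share the siRNA groups and the gap of replicate 2, and so describe these libraries only. Over all tested genes, the 3 with the highest r were Gm29100, Phf11d and Mrgbp for Irf7 (0.9995, 0.9992 and 0.999), Trim21, Psmb8 and Igtp for Stat2 (0.9988, 0.9979 and 0.9977), and Apaf1, Yy1 and Ifit1 for Irf9 (0.9959, 0.9958 and 0.9957). They were Zfp385a, Smpdl3b and Tlr2 for Ifnar2 (0.9984, 0.9982 and 0.997), Aqp3, Il4ra and Acad11 for Irf1 (0.9991, 0.9979 and 0.9952), and Patl1, Pla2r1 and Xaf1 for Tyk2 (0.9973, 0.995 and 0.9942). For the genes that varied least, they were Cbx6, Anks1 and Lipe for Ifnar1 (0.9902, 0.99 and 0.9887), Il1rl2, Kbtbd11 and Dnah17 for Jak1 (0.9913, 0.9907 and 0.9906), and Emd, Dok6 and Gm15429 for Socs1 (0.9821, 0.9771 and 0.9747).

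The other genes of the pathway were taken from lists written by pathway membership: 20 interferon ligands, 4 other receptor chains, 7 other JAK and STAT genes, 6 other interferon regulatory factors and 16 other inhibitors. Of these 53, 30 had enough counts to be tested. In the comparison without the block 0 were called by edgeR, and 7 had an unadjusted p under 0.05, against 2690 of all 15269. DESeq2 called 1 higher, Ptpn1, where it called 1.08% of all its genes higher. With the block, edgeR called 1 of the 30 higher, Ptpn1, and 1 lower, Socs2, beside 2.65% of all tested genes higher and 3.18% lower. These counts are near those shares, so nothing is read from them about the lists. The median log2 fold change of the 30 was 0.08 without the block, and 21 of the 30 were above 0.

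Ptpn1, a phosphatase that removes phosphate from the kinases of this pathway, was at 73.51, 98.75 and 63.53 CPM in siNC and at 138.4, 190.2 and 159.9 CPM in siPkm2. Its log2 fold change was 1.05 ± 0.21 without the block (edgeR adjusted p = 0.124) and 1.06 ± 0.11 with it (edgeR adjusted p = 0.0112), and replicate 2 did not stand apart. Socs2, a relative of Socs1 best known for restraining growth hormone signalling, was at 41.12, 16.18 and 38.97 CPM in siNC and at 14.17, 8.17 and 19.19 CPM in siPkm2. It was lower in all 3 pairs, with a log2 fold change of -1.21 ± 0.45 without the block (edgeR adjusted p = 0.238) and -1.18 ± 0.14 with it (edgeR adjusted p = 0.0129).

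Usp18, an inhibitor that acts at Ifnar2 and is itself induced by interferon, had the arrangement of Irf7, with 1.281, 106.4 and 2.758 CPM in siNC and 80.88, 212 and 54.02 CPM in siPkm2. It was not called, at a log2 fold change of 1.65 ± 1.53 without the block (edgeR adjusted p = 0.633) and 3.48 ± 0.99 with it (edgeR adjusted p = 0.0574). The interferon gamma receptor chains Ifngr1 and Ifngr2 were not called either, with log2 fold changes of 0.15 ± 0.09 and 0.31 ± 0.09 with the block (edgeR adjusted p = 0.288 and 0.0567). Jak2, the kinase of that receptor, and Irf3, the regulatory factor that starts interferon production, had log2 fold changes of 0.07 ± 0.10 and -0.12 ± 0.10 with the block (edgeR adjusted p = 0.643 and 0.39).

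**Figure D5:**
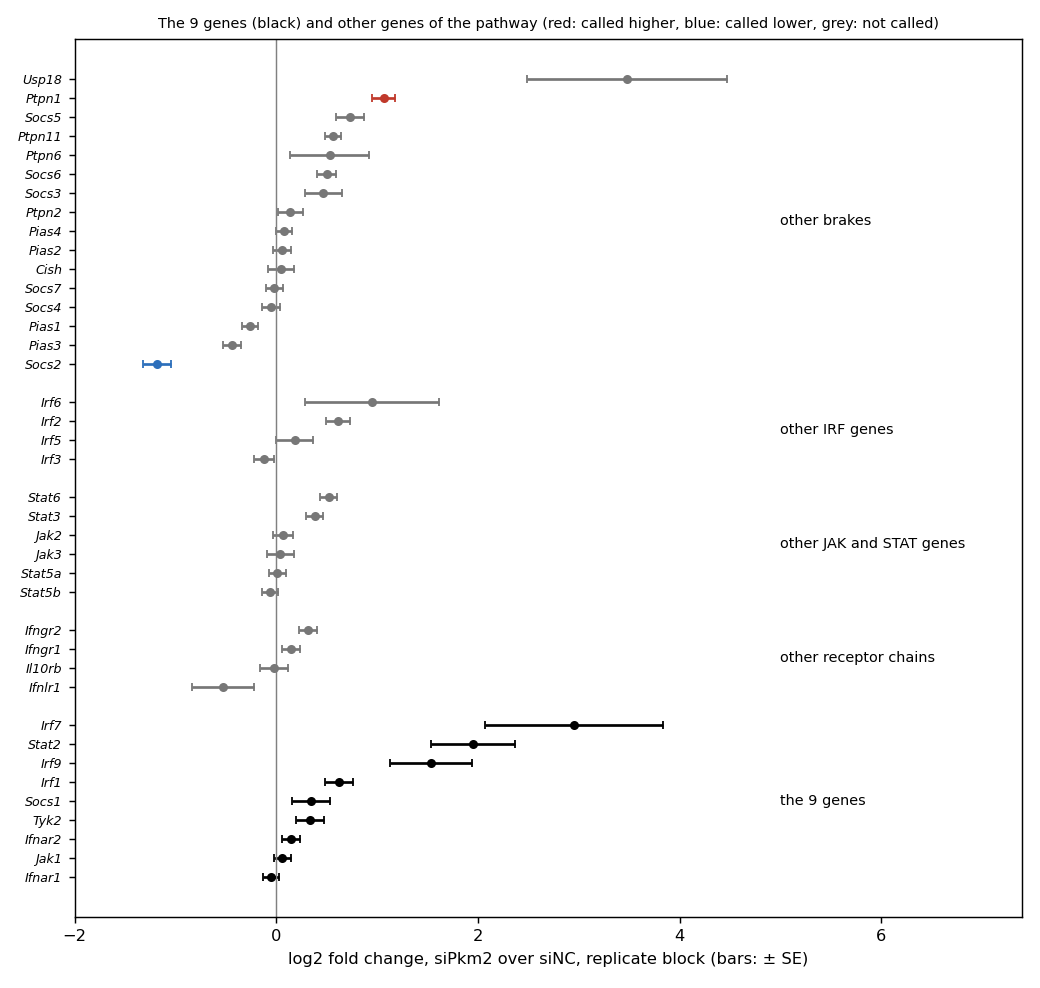
Log2 fold change of siPkm2 over siNC fitted with the replicate block (bars are ± SE) for the 9 genes (black) and the 30 other pathway genes tested, grouped by role. Ptpn1 was called higher (red), Socs2 lower (blue), and the others were not called (grey), Usp18 among them despite the highest value of the 30.

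Apart from Ifnb1 in replicate 2, ligand transcripts were nearly absent at this depth. Of 20 interferon genes, 17 had 0 counts in every library. As an approximate upper limit from counting error for a count of 0, 3 counts come to 0.1167 to 0.1398 CPM. The interferon beta gene Ifnb1 had 5 counts (0.67 TPM) in siNC replicate 2, 28 counts (3.45 TPM) in siPkm2 replicate 2 and 0 in the other 4 libraries. Ifna16 and Ifna4, named after their values were seen, had 1 count each, in siNC replicate 2 and siPkm2 replicate 2. Ifnb1 counts therefore appeared in the libraries with the highest Irf7, Stat2 and Ifnar2, and were 0 in siPkm2 replicates 1 and 3, where Irf7 was at 80.88 and 60.83 CPM. The limit of 3 counts covers counting error only, and no ligand had enough counts to be tested. These counts do not say which cells the transcripts came from.

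At the output end, all 20 of a list of ISGF3 targets had log2 fold changes above 0, with a median of 1.27 without the block and 2.99 with it, against -0.02 and -0.01 over all tested genes. Without the block 0 of the 20 were called by edgeR, 0 had an unadjusted p under 0.05, and DESeq2 called 0 but gave no adjusted p for 10 of the 20. With the block edgeR called 7 of the 20 higher, against 2.65% of all tested genes. This list too was chosen with earlier results of these data known, so its values are a description and nothing is read from the counts. Isg15, a ubiquitin-like protein, was at 3.403, 205.3 and 6.393 CPM in siNC and at 227.9, 399.5 and 123.2 CPM in siPkm2 (log2 fold change 3.72 ± 1.07 with the block, edgeR adjusted p = 0.0593). Ifit1, which binds foreign RNA, was at 2.723, 208.1 and 7.225 CPM in siNC and at 180.8, 511.2 and 169.4 CPM in siPkm2 (3.91 ± 1.00 with the block, edgeR adjusted p = 0.0445, and 1.98 ± 1.51 without it, edgeR adjusted p = 0.547). Both had the same high siNC replicate 2 as Irf7, and replicate 2 was over 2 times the other replicates in both groups for 17 of the 20, against 4.31% of all tested genes. In replicate 2, high levels of these targets came with a low chondrocyte sum and a high leukocyte sum, the latter mainly Cd68 and Cd14. The 20 targets summed to 2472 CPM in siNC and 4478 CPM in siPkm2 there. They also summed to 1595 and 1226 CPM in siPkm2 replicates 1 and 3, without a leukocyte sum as high as in replicate 2. In replicates 1 and 3, where Irf7, Stat2 and Irf9 were higher in siPkm2 than in siNC, the leukocyte sum was 8.688 and 8.582 CPM in siNC and 19.81 and 13.12 CPM in siPkm2. Of its 4 tested markers, Cd68, Cd14 and Csf1r were higher in siPkm2 in pairs 1 and 3, and Lyz2 was lower. The chondrocyte sum was 46450 and 45100 CPM in siNC and 40170 and 38940 CPM in siPkm2. Most of it was Col2a1, at 36070 and 34890 CPM in siNC and 28380 and 27890 CPM in siPkm2. Of the 8 chondrocyte markers, 5 were higher in siPkm2 in all 3 pairs (Acan, Comp, Col11a2, Matn3 and Hapln1) and 0 were lower in all 3. Of all tested genes, 30.5% were higher and 30.6% lower in all 3 pairs. With the block 0 of the 8 were called, and nothing is read from these counts. The part of cell composition in these differences was not tested.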

How the data were processed

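RNA-seq of 6 libraries (siNC and siPkm2, n = 3 each) was taken from the deposited table. The authors deposited estimated counts, not normalized and some fractional, TPM values that they scaled to the same total per library, the mean TPM of each group, and their own fold change, log2 fold change, p-value and adjusted p-value. The authors' fold changes, p-values and group means were not used. The aligner and counter are not given in the sources used here. The submitters' processing notes name mm9 and edgeR without a role, while identifiers were looked up in GENCODE M21 (GRCm38) for gene positions, and promoter windows were matched by symbol to RefSeq on GRCm38.p6. The 9 genes and the lists were chosen with earlier results of these data known.

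Counts were rounded to whole numbers. The tests were run in R 4.3.3, using edgeR 4.0.16 (filterByExpr, TMM, quasi-likelihood test, Benjamini-Hochberg adjustment over all 15269 genes tested) and DESeq2 1.42.0. A gene was called at a fold over 2 and an adjusted p under 0.05. The SE given with each edgeR log2 fold change was derived from the test, as its absolute value divided by the square root of the quasi-likelihood F statistic. Rows without a gene symbol numbered 1492 of 55416 and were kept under their identifiers. The procedure was tested on simulated data. Replicate numbers pair the libraries: across genes, deviations from the group means correlated at 0.716, 0.794 and 0.72 for equal numbers and at 0.217 or less for others, although the labels do not say what a number stands for. No library duplicated another, since 53.6% to 73.7% of genes differed beyond sampling noise within groups. Log2 CPM used a pseudocount of 0.5, and log2 TPM one of 0.1.

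Named genes were the 9 genes, Pkm, the other pathway genes called with the block, 6 further pathway genes (Ifngr1, Ifngr2, Jak2, Irf3, Usp18 and Ifnb1), 2 of the ISGF3 targets, and the 3 genes most like each of the 9 by Pearson r. A gene of the lists is not reported here. The alternatives tried were the replicate block, libraries left out singly or by number, DESeq2 in place of edgeR, scaling by RLE or by the upper quartile, a filter of at least 10 counts per library or none, calls on the adjusted p alone, and TPM in place of counts.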

Additional observations from a re-analysis of the deposited data

How the results depend on the processing

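Of the 9 genes, 0 were called with every library and no block, and also with RLE or upper-quartile factors, DESeq2, a filter of at least 10 counts per library or none, or calls on the adjusted p alone. In the main comparison without the block the targeted gene Pkm was not called either (log2 fold change -2.51, edgeR adjusted p = 0.0738). A count of 0 there thus does not show that the 9 genes were unchanged. DESeq2 gave no adjusted p for Stat2 and Irf7 and so could not call them. With the replicate block 2 of the 9 were called, Stat2 and Irf9. Leaving out 1 library gave 0 to 1 of the 9, and the 1 was Irf9 without siNC replicate 2. Without both libraries of number 2, 3 were called (Stat2, Irf9 and Irf7), and likewise 3 with the block, an alternative chosen after seeing the data. Without both libraries of number 1 or 3, 0 were called. Over all genes the main count of 0 became 890 with the block, 430 with DESeq2, 9 with no filter, 3 with upper-quartile factors, 3 with the filter of at least 10 counts and 0 to 105 with 1 library left out, the 105 being without siNC replicate 2. It was 507 without both libraries of number 2 and 1639 with the block as well. Among the other pathway genes the count of 0 became 2 with the block, 1 with DESeq2, 3 without both libraries of number 2 and 4 with the block as well, and stayed 0 with any 1 library left out. With numbers 1 or 3 left out and the block kept, the counts were 0. The log2 fold change of Irf7 ran from -0.45 without siPkm2 replicate 2 to 5.65 without siNC replicate 2, and over its 19 alternatives the sign changed in 1. It changed in 2 for Ifnar2 and 3 for Jak1 and in 0 for the other 6 genes. The depth of at least 22317065 counts per library limits the ligand genes, and the spread between 3 libraries limits the others.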
